A study of Homo sapiens with 9 samples.

Results

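MUC4, DHRS2 and 8 further genes were examined together. They were chosen by their levels in Single Cell Rep 3 and Single Cell Rep 2 of these data. Most of them varied strongly between these libraries, and KIAA1551 varied least (2.02-fold). The 10 genes, of 26485 gene models in all, were MUC4, SLC12A3, DHRS2, ACTL8, ALDH1A2, ATP2B4, ITM2A, EPPK1, KIAA1551 and POTEF, and every one was present in the 9 count files. HAP1 cells are a near-haploid human line of chronic myeloid leukaemia origin that grows attached. Wild-type HAP1 cells were sorted by flow cytometry into lots of 1 cell (3 libraries), 10 cells, 100 cells and 1000 cells (2 libraries each), RNA was isolated on NAxtra magnetic beads with DNase treatment, and stranded SMART-Seq libraries were sequenced. The labels call the libraries biological replicates without saying whether they came from separate cultures, so p-values measure only the spread between these libraries.

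The genes belong to different pathways. Mucins are heavily glycosylated proteins that cover epithelial surfaces, and MUC4 is a membrane-bound one. SLC12A3 is the thiazide-sensitive sodium-chloride cotransporter of the kidney, ATP2B4 is a calcium pump of the plasma membrane, and ITM2A is a membrane protein with a BRICHOS domain. DHRS2 is a short-chain dehydrogenase, a family that oxidises and reduces steroids, retinoids and other carbonyl compounds, and ALDH1A2 makes retinoic acid from retinal. EPPK1, or epiplakin, binds keratin filaments, ACTL8 is an actin-like gene mostly known from testis and tumours, and POTEF encodes a primate protein with ankyrin repeats and an actin-like end. KIAA1551, now named RESF1, represses retroelements in mouse embryonic stem cells.

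Counts assigned to genes ranged from 42842970 to 61645865 per library. Levels are given as CPM, counts per 1000000 of a TMM-scaled library, and differences as log2 CPM with a prior count of 2. The 6 libraries of 10, 100 and 1000 cells are called the larger libraries, and log2FC is the log2 fold change of a fit, with its standard error (SE). BCR and ABL1, the fused genes of the line's origin, summed to 44.2, 27.7 and 13.8 CPM in Single Cell Reps 1, 2 and 3 and to between 32.9 and 39.7 CPM in the 6 libraries of more cells. The 8 blood lineage genes checked summed to at most 0.157 CPM in single cells and 1.38 CPM in the other libraries. KRT5, KRT14, KRT7 and GRHL2 among 9 epithelial markers were at 0 in all 9 libraries. So were DCN, LUM and FAP among 10 fibroblast markers and TNFRSF17 among 9 plasma cell markers. Other markers of these lists were detected in all 9 libraries, namely ESRP1 (epithelial), PDGFRA and COL1A1 (fibroblast), and XBP1 and SDC1 (plasma cell).

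RefSeq promoter sequences (GRCh38.p14, 250 bases before to 50 bases after a gene's start) were held for 9 of the 10 genes. Of these, 4 are shown, for MUC4, SLC12A3 and ACTL8, which were highest in Single Cell Rep 3, and for ITM2A, which was lowest there. In Single Cell Rep 1, ITM2A lay above all 6 larger libraries, as did MUC4, SLC12A3 and ACTL8. Capitals mark the letters CACCC, as found before genes that Krueppel-like factors regulate, and TATAAA, the core of a TATA box, on either strand. The stretches are chr3:195811880-195812179 (minus strand), chr16:56864957-56865256 (plus strand), chr1:17755083-17755382 (plus strand) and chrX:79367285-79367584 (minus strand), and the RefSeq starts lay 44, 0, 20 and 218 bases from the nearest exon start of the files' models.
MUC4: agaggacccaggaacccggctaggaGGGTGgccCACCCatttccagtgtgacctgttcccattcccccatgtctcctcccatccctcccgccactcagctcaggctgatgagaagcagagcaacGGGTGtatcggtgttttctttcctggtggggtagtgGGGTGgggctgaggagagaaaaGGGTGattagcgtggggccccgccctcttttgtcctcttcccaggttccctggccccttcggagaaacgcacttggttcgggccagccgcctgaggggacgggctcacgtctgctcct
SLC12A3: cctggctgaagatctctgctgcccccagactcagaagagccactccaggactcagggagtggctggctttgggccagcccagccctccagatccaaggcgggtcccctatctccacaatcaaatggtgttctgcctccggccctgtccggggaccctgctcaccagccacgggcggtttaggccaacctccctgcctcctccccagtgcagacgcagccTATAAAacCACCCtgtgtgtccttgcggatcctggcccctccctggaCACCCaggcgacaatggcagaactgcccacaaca
ACTL8: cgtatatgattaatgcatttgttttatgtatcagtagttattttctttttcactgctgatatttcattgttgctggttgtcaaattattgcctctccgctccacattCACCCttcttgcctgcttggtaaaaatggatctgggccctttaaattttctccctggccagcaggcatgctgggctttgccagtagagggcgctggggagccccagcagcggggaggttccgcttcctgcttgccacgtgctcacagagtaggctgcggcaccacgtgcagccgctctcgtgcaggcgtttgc
ITM2A: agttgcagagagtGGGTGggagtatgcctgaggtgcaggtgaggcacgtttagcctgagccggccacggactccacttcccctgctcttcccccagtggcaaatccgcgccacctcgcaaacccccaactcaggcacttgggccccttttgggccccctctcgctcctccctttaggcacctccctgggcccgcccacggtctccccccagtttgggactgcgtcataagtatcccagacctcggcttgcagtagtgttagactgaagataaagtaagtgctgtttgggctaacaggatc
MUC4 held CACCC at 5 places, SLC12A3 at 2, and ACTL8 and ITM2A at 1 each. Of the 9 genes, 7 held CACCC, which 59.9% of all 35116 promoters also held, and 6 held GGGCGG, the GC box, found in 44.95% of all promoters. TATAAA was present in SLC12A3 and DHRS2 (11.5% of all promoters), CCAAT in ALDH1A2 and POTEF (34.6%), AGGTCA, a core letter run of nuclear receptor sites, in MUC4 and POTEF (13.8%), and CACGTG in ACTL8 alone (7.26%). None held TGANTCA (7.71%) or ATGCAAAT (1.77%). CpG dinucleotides ranged from 0 in DHRS2 to 41 in the first start of ALDH1A2, against a median of 14 over all promoters. No searched motif was thus common to all 9. The RefSeq start of DHRS2 lay 6249 bases from any exon start in the files, and its promoter was counted but is not shown.

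The files place the genes on 9 chromosomes of hg38, and none shared exon bases with another gene model. MUC4 lay on chromosome 3 from 195746766 to 195811973, SLC12A3 on chromosome 16 from 56865207 to 56915850, DHRS2 on chromosome 14 from 23636364 to 23645639 and ALDH1A2 on chromosome 15 from 57953424 to 58065923. ACTL8, from 17755313 to 17827063, and ATP2B4, from 203626787 to 203744081, lay far apart on chromosome 1. ITM2A lay on chromosome X from 79360384 to 79367552, EPPK1 on chromosome 8 from 143857319 to 143878464, KIAA1551 on chromosome 12 from 31959419 to 31993107 and POTEF on chromosome 2 from 130073535 to 130129222. Their exons covered between 1687 bases (DHRS2) and 16805 bases (MUC4, on chromosome 3). The MUC4 model also listed 7 alternate contigs, and the resulting listed length of 127130 bases was not used. Reads that mapped to several places were not counted, so genes with close copies, such as POTEF, may be undercounted. The same holds for MUC4 if the aligner index held the alternate contigs, which is not given in the sources used here.

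In Single Cell Rep 3, 9 of the 10 genes lay above every library of more cells, and ITM2A lay below every one, beside 31% of 17064 genes above and 38.3% below. As Rep 3 chose the genes, these values are a description. MUC4 had 70.2, 17.5 and 291 CPM in Single Cell Reps 1, 2 and 3, against 24.3 and 29.7 CPM in the 10 Cell, 9.14 and 9.53 CPM in the 100 Cell and 16.2 and 12.2 CPM in the 1000 Cell libraries. Rep 1 and Rep 3 were above all others and Rep 2 was within their range. SLC12A3 had 45.1, 0.137 and 139 CPM in the 3 single cells, against 24.7 and 36.8 CPM at 10 cells, 4.28 and 21.4 CPM at 100 cells and 28.4 and 21.4 CPM at 1000 cells. Its level in Rep 2 came from 7 counts, and that in Rep 3 from 7263 counts.

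DHRS2 was detected in a single cell only in Rep 3. It had 0 counts in Rep 1 and Rep 2 and 4268 counts, or 81.8 CPM, in Rep 3, against 0.552 and 0 CPM at 10 cells, 3.70 and 1.01 CPM at 100 cells and 3.80 and 1.69 CPM at 1000 cells. A floor of 3 counts per library puts Rep 3 at least 1390-fold higher than Rep 2 and at least 1411-fold higher than Rep 1. Here and elsewhere such floors cover counting error only, because PCR copies without molecular identifiers are not independent molecules. ALDH1A2, the other dehydrogenase, had 30.3, 2.33 and 87.4 CPM in the 3 single cells, against 25.1 and 18.8 CPM at 10 cells, 12.9 and 16.9 CPM at 100 cells and 18.2 and 16.6 CPM at 1000 cells. Unlike DHRS2, ALDH1A2 was above all libraries of more cells in Rep 1 too.

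ACTL8 had 96.2, 18.6 and 181 CPM in Single Cell Reps 1, 2 and 3, against 60.9 and 48.3 CPM at 10 cells, 16.5 and 40.9 CPM at 100 cells and 43.2 and 42.4 CPM at 1000 cells. POTEF had 16.5, 0.235 and 63.2 CPM in the single cells, against 9.69 and 10.9 CPM at 10 cells, 5.05 and 7.04 CPM at 100 cells and 7.77 and 8.56 CPM at 1000 cells. Both actin-related genes were highest in Rep 3, followed by Rep 1. POTEE, a close copy of POTEF on chromosome 2 from 131218351 to 131264843, had 49.96, 1.14 and 75.3 CPM in the same cells, with a mean of 17.2 ± 4.05 CPM (SD) over the 6 larger libraries, and reads of these copies cannot be fully told apart. POTEI, a further copy, had 0.464, 0.667 and 3.03 CPM in the single cells, with a mean of 2.21 ± 0.505 CPM (SD) over the 6 larger libraries.

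KIAA1551 and EPPK1 had the smallest log2 spread of the 10 between the single cells. KIAA1551 had 389.7, 221 and 448 CPM in Single Cell Reps 1, 2 and 3, with a mean of 185 ± 30.4 CPM (SD, range 140.3 to 226) over the 6 larger libraries. EPPK1 had 175, 57.9 and 239 CPM in the single cells, with a mean of 101 ± 11.2 CPM (SD, range 87.1 to 118) over the 6 larger libraries. ATP2B4 had 84.9, 15.5 and 148 CPM in the single cells, with a mean of 88.8 ± 4.12 CPM (SD, range 83.4 to 95.3) over the 6 larger libraries, so that Rep 1 lay within the range of the 6 libraries. ITM2A had 111, 68.1 and 9.44 CPM in the single cells, with a mean of 81.9 ± 9.49 CPM (SD, range 71.1 to 99.4) over the 6 larger libraries, and it was lowest where the other 9 genes were highest.

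Per kb of exon, the mean level at 1000 cells was highest for ITM2A (42.9 CPM per kb), KIAA1551 (29.3) and ACTL8 (23.0), and lowest for DHRS2 (1.63 CPM per kb) and MUC4 (0.844, which may be too low if reads mapped to alternate contigs too).

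**Figure D1:**
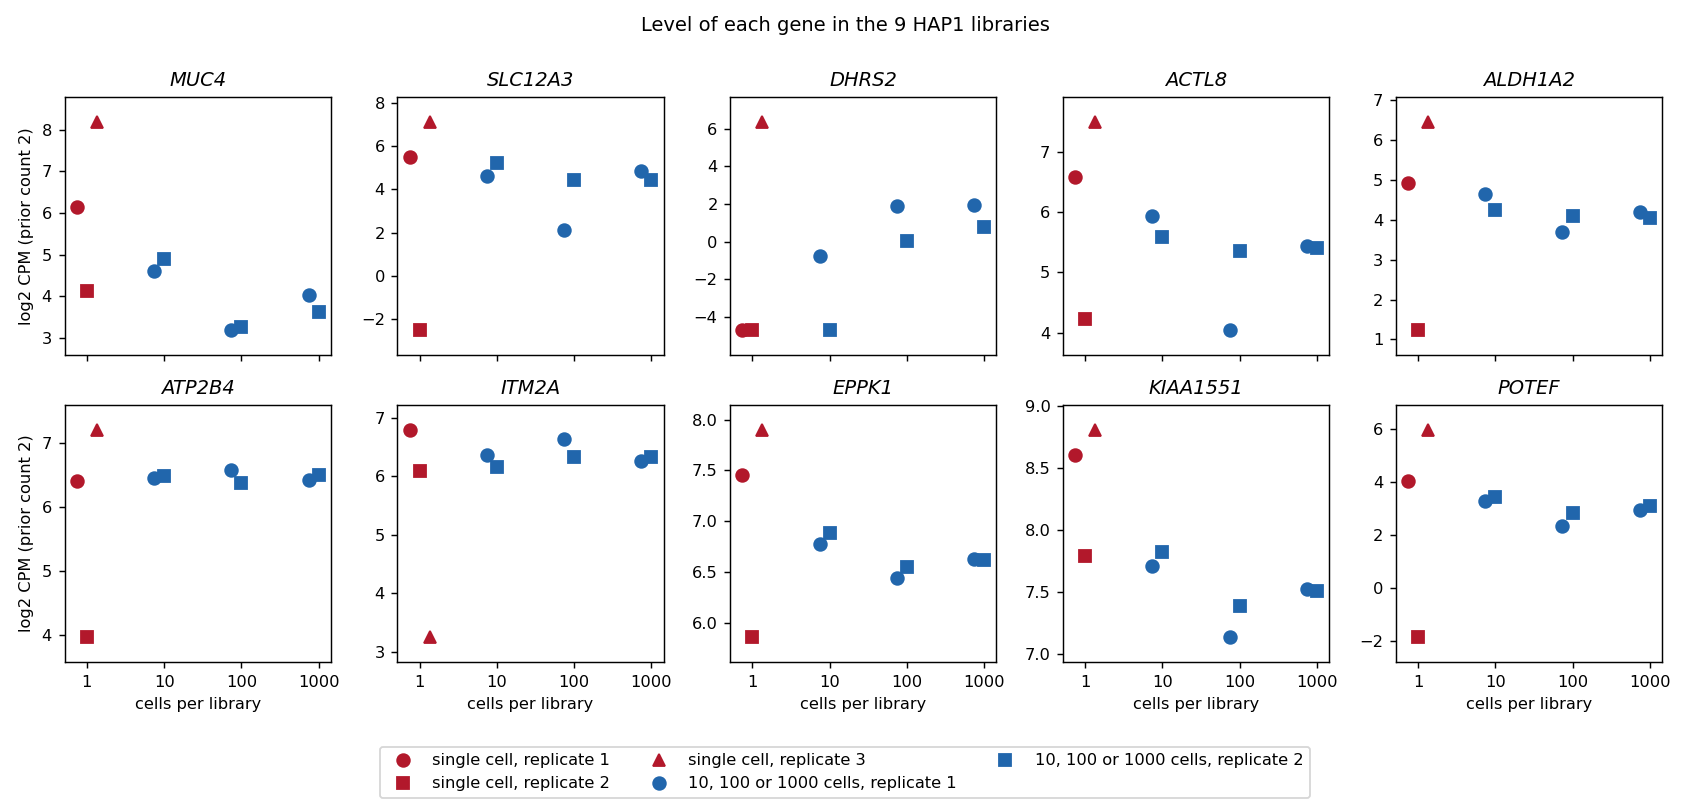
Level of each of the 10 genes (vertical axis, log2 CPM with a prior count of 2, a scale for each panel) by cells per library (horizontal axis), with red points for single cells, blue points for libraries of more cells and the symbol giving the replicate. Single Cell Rep 3 (triangle) is the highest point in 9 panels and the lowest for ITM2A. DHRS2 had 0 counts in Single Cell Rep 1, Single Cell Rep 2 and 10 Cell Rep 2, where the point is set by the prior count.

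The 10 genes were not the 10 most variable ones by log2 difference, and the measure that chose them is not given in the sources used here. Among 9875 genes averaging 10 CPM or more, ordered by the size of the log2 CPM difference between Rep 3 and Rep 2, DHRS2 was 1st (difference 11.02), SLC12A3 3rd (9.62), POTEF 17th (7.85), ALDH1A2 35th (5.20) and MUC4 66th (4.06). ACTL8 was 122nd (3.28), ATP2B4 124th (3.25), ITM2A 185th (-2.85), EPPK1 460th (2.04) and KIAA1551 1976th (1.02). As Rep 3 and Rep 2 chose the genes, these ranks are a description. DHRS2 reached its mean of 10.3 CPM only through Rep 3, with at most 3.80 CPM in any other library. Its difference rests on the prior count, as Rep 2 had 0 counts, and was 13.02 with a prior count of 0.5. Among genes not chosen, CCDC144NL-AS1 was 2nd (9.80), EFNB3, an ephrin ligand gene, 4th (-9.36) and MYO1D, a myosin gene, 5th (9.32). All 10 differed by over 1 on this scale, 9 upward and 1 downward, beside 15.7% and 17.6% of 13470 genes averaging 1 CPM or more. KIAA1551 was at the limit and fell below it on library totals without TMM (0.999), which left 9 of the 10.

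Single Cell Rep 1 took no part in the choice and was compared with the 6 libraries of more cells to ask whether the genes rose together in a further single cell. In Rep 1, 7 of the 10 genes were higher and 1 was lower (edgeR quasi-likelihood test, adjusted p under 0.05), beside 16.8% of 17064 genes higher and 22.8% lower. MUC4 rose the most, by a log2FC of 2.05 (SE 0.41, edgeR adjusted p = 0.00175). ACTL8 (log2FC 1.18 ± 0.36 SE, edgeR adjusted p = 0.0190), KIAA1551 (1.07 ± 0.16 SE, adjusted p = 0.000228) and POTEF (1.00 ± 0.30 SE, adjusted p = 0.0178) followed, of which ACTL8 did not pass in DESeq2 (adjusted p = 0.103). EPPK1 (0.78, adjusted p = 0.000382) and ALDH1A2 (0.73, adjusted p = 0.0289) rose less. ITM2A also rose (0.43, edgeR adjusted p = 0.0223), so that it was higher like 6 others in Rep 1 and lay opposite to them in Rep 3.

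DHRS2 was lower in Rep 1, with 0 counts, which is at least 30.9-fold lower on the 3-count floor (edgeR adjusted p = 0.0363), and the call was lost without 100 Cell Rep 1 (adjusted p = 0.0546). SLC12A3 had a log2FC of 0.97 (SE 0.56) and did not pass. Its log2FC lay between 0.76 and 1.23 over 12 alternatives, of which it passed in only 1, that without 100 Cell Rep 1 (0.76). ATP2B4 had -0.08 (adjusted p = 0.548). DHRS2 also had 0 counts in 10 Cell Rep 2, a library on the other side of this comparison, and in Single Cell Rep 2. The median log2FC over the 10 genes was 0.88, also with DHRS2 at its floor, and -0.16 over all genes tested. The fit takes the spread of a lone single cell from the 6 larger libraries, so that spread between single cells does not enter these p-values.

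Without a test, Rep 1 lay above all 6 libraries of more cells for 8 of the 10 genes, beside 30.9% of 17064 genes. For 8 of the 10, all but DHRS2 and ITM2A, Rep 1 lay between Rep 2 and Rep 3, beside 28.7% of these genes. Among the 488 genes averaging 10 CPM or more that differed by over 2 on the log2 scale between Rep 3 and Rep 2, 70.5% had Rep 1 in between, so this intermediate place was not particular to the 10 genes. In Rep 2, which helped choose the genes, 6 of the 10 lay below all 6 libraries of more cells and none above, beside 35.6% and 29.4% of all genes. By over 1 in log2 CPM from the mean of the larger libraries, 5 of the 10 were higher and 1 lower in Rep 1 (beside 8.84% and 12.3% of 13470 genes), 0 higher and 6 lower in Rep 2 (beside 7.51% and 13.2%), and 8 higher and 1 lower in Rep 3 (beside 10.4% and 17.1%). Sums of markers of other cell types also differed between the single cells. The 10 fibroblast markers summed to 81.9, 53.8 and 174 CPM in Rep 1, Rep 2 and Rep 3, against 122 to 147 CPM in the others, of which PDGFRA alone made up 74.3, 39.4 and 156 CPM, while DCN, LUM and FAP were at 0. The 9 epithelial markers summed to 8.67, 2.02 and 2.59 CPM, against 2.32 to 3.21 CPM, of which ESRP1 alone made up 7.88, 2.02 and 2.59 CPM. The 9 plasma cell markers summed to 205, 146 and 199 CPM, against 189 to 211 CPM, so that only Rep 2 lay outside that range. Of these sums, XBP1 made up 143, 102 and 157 CPM and SDC1 61.9, 43.2 and 42.6 CPM. The part of these markers in the levels of the 10 genes was not tested.

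**Figure D2:**
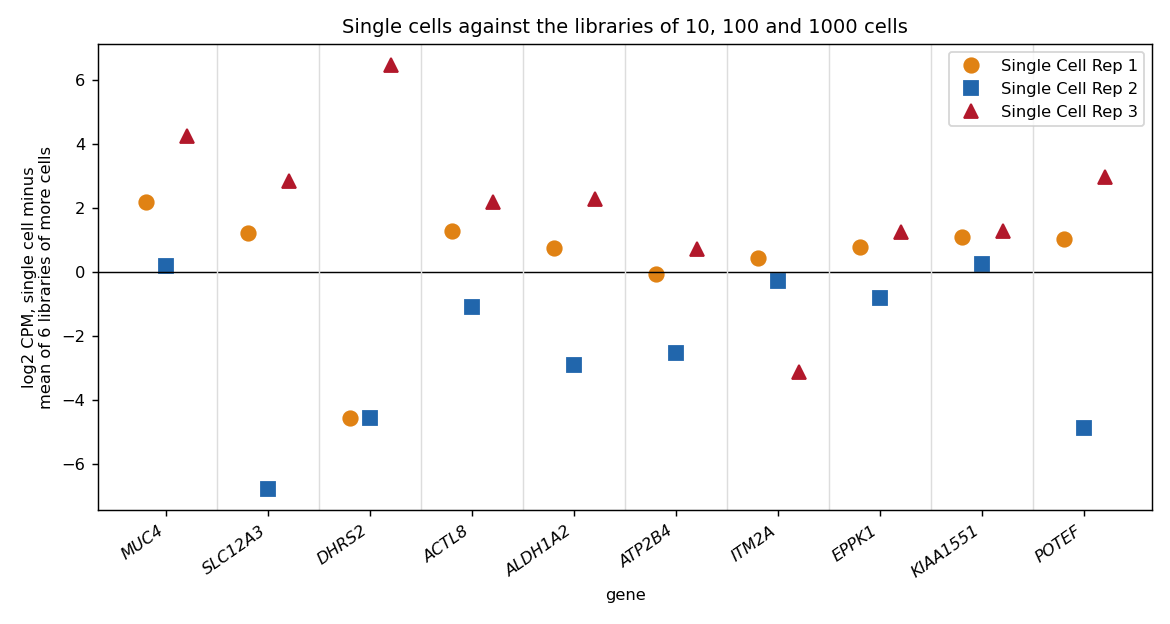
Difference in log2 CPM between each single cell and the mean of the 6 libraries of more cells (vertical axis) for the 10 genes (horizontal axis), with circles for Single Cell Rep 1, squares for Rep 2 and triangles for Rep 3. Rep 1 lies between the other 2 cells for 8 genes, at the level of Rep 2 for DHRS2, where both had 0 counts, and above both for ITM2A.

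No single cell enters the comparison of 10 cells with 100 and 1000 cells, whose 6 libraries also served in the comparison of Rep 1. None of the 10 genes passed the test there, beside 0.0126% of 15926 genes higher and 0.00628% lower by edgeR, although 6 of the 10 had an unadjusted p under 0.05 (2137 of all genes did). DESeq2's Wald test called 3 of the 10 higher, MUC4 (adjusted p = 0.000217), KIAA1551 (adjusted p = 0.0177) and EPPK1 (adjusted p = 0.0427). Over all 15926 genes it called 266, of which 111 were higher and 155 lower. MUC4 had the largest difference upward, with a mean of 27.0 CPM at 10 cells, against 9.33 CPM at 100 cells and 14.2 CPM at 1000 cells (log2FC 1.21 ± 0.21 SE, edgeR adjusted p = 0.191), and passed the test without 100 Cell Rep 1 (adjusted p = 0.0497). DHRS2 had the largest difference downward, with 24 and 0 counts at 10 cells, against 191, 53, 165 and 105 counts at 100 and 1000 cells (adjusted p = 0.279). In such pools, fewer cells that express a gene and less RNA per cell cannot be told apart.

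Both 10 Cell libraries lay above all 4 libraries of 100 and 1000 cells for 6 of the 10 genes, MUC4, ACTL8, ALDH1A2, EPPK1, KIAA1551 and POTEF, beside 10.7% of the genes tested. DHRS2 was the 1 gene of the 10 for which both lay below, beside 12.5%. ALDH1A2 averaged 22.0 CPM at 10 cells, against 14.9 CPM at 100 and 17.4 CPM at 1000 cells, and KIAA1551 averaged 218 CPM, against 154 and 183 CPM. The median log2FC was 0.41 over the 10 genes and 0.00 over all genes.

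Between 100 and 1000 cells, edgeR called none of the 10 genes and none of all 15597 (0% in either direction), with 2 of the 10 and 314 of all at an unadjusted p under 0.05. DESeq2's Wald test called none of the 10 and 1 gene in all. The median log2FC over the 10 genes was -0.23, and 0.00 over all genes. MUC4 had a log2FC of -0.60 (SE 0.18, edgeR adjusted p = 0.952), and SLC12A3 one of -0.96 (SE 0.57, adjusted p = 0.952). The value of SLC12A3 rested on the choice of 100 Cell library, at -0.22 without 100 Cell Rep 1 and -2.54 without 100 Cell Rep 2. Without 100 Cell Rep 2, 100 Cell Rep 1 stood alone and was assumed to vary like the 1000 Cell libraries, so only effect sizes are given. In that fit the log2FC was -1.38 for ACTL8, -0.70 for POTEF, -0.63 for MUC4 and -0.43 for ALDH1A2. It was -0.38 for KIAA1551 and -0.18 for EPPK1, against 0.45 for DHRS2, 0.33 for ITM2A and 0.10 for ATP2B4.

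**Figure D3:**
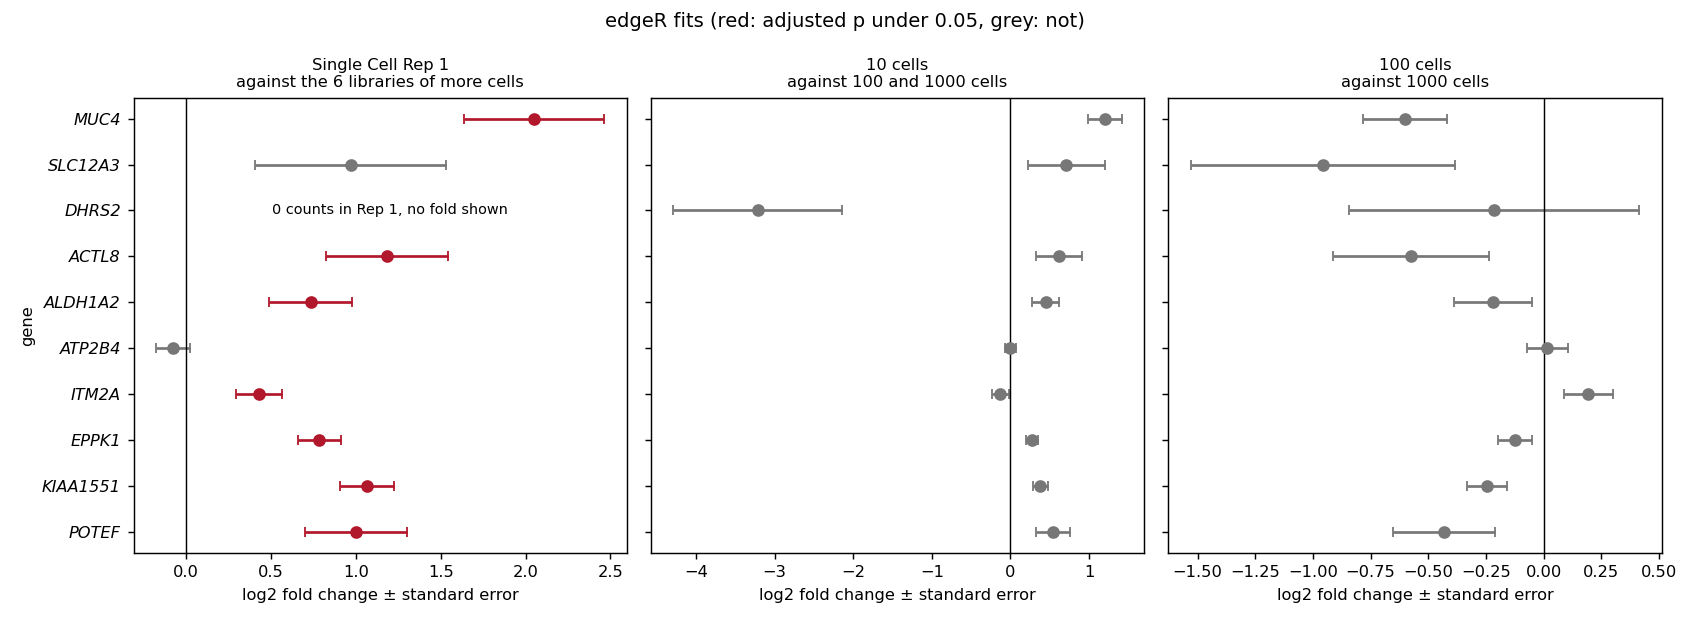
Log2 fold change (horizontal axis, with a scale for each panel, bars for the standard error) of the 10 genes (vertical axis) in the 3 comparisons that the choice of genes did not use. Red points passed an adjusted p of 0.05 in edgeR and grey points did not. All 7 red points, in the comparison of Single Cell Rep 1, lie above 0, and no fold is drawn there for DHRS2, which had 0 counts.

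The 100 Cell libraries differed from each other in several of the 10 genes. 100 Cell Rep 1 was the lowest of the 6 libraries of more cells for 7 genes, MUC4, SLC12A3, ACTL8, ALDH1A2, EPPK1, KIAA1551 and POTEF, beside 23.3% of the genes tested, and the highest for ATP2B4 and ITM2A, beside 22.9%. 10 Cell Rep 2 was the highest for 5, MUC4, SLC12A3, EPPK1, KIAA1551 and POTEF, beside 22.4%. SLC12A3 had 4.28 CPM in 100 Cell Rep 1 and 21.4 CPM in 100 Cell Rep 2, a difference of -2.31 in log2 CPM, and ACTL8 had 16.5 and 40.9 CPM, a difference of -1.31. DHRS2 went the other way, with 3.70 and 1.01 CPM, a difference of 1.84. Thus 2 of the 10 genes were lower and 1 was higher by over 1 in 100 Cell Rep 1, beside 3.07% and 1.48% of 13470 genes. With 1 library a side, these differences have no replicate check. Within the 10 Cell pair and within the 1000 Cell pair, only DHRS2 among the 10 differed by over 1 in log2 CPM. It had 0.552 and 0 CPM (24 and 0 counts) at 10 cells and 3.80 and 1.69 CPM (165 and 105 counts) at 1000 cells. Over all genes, 3.59% were higher and 3.56% lower by over 1 in 10 Cell Rep 1, and 0.379% each in 1000 Cell Rep 1.

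**Figure D4:**
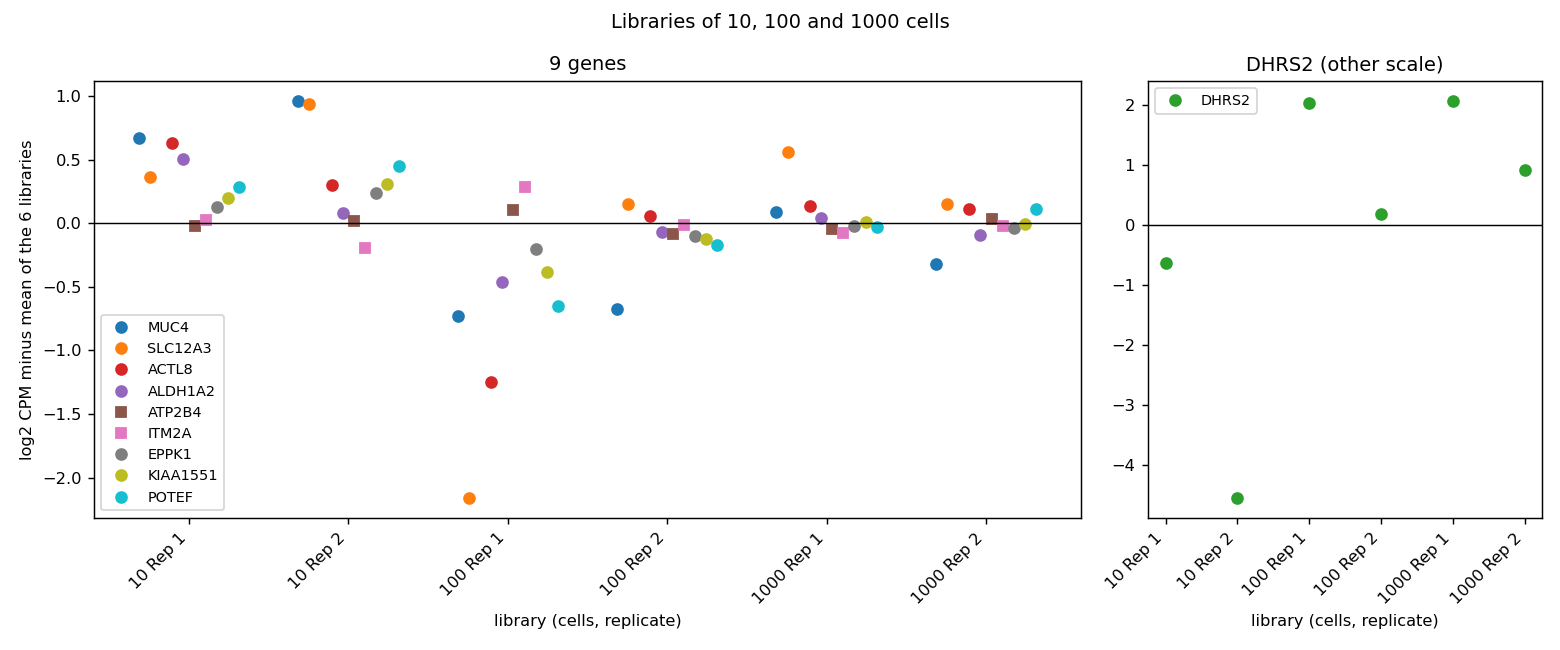
Log2 CPM of each gene minus its mean over the 6 libraries (vertical axis) in the libraries of 10, 100 and 1000 cells (horizontal axis), with 9 genes on the left and DHRS2 on its own scale on the right. In 100 Cell Rep 1 the points of 7 genes are the lowest of their gene and those of ATP2B4 and ITM2A (squares) are the highest. DHRS2 had 0 counts in 10 Cell Rep 2.

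Relatives of the 10 genes were called in both directions in Single Cell Rep 1. The counts stand beside 16.8% of 17064 genes higher and 22.8% lower, and with lists this short they are descriptions. Beside MUC4, 7 of 19 genes listed as mucins, as mucin-like or by a MUC name were tested. PODXL (podocalyxin) was higher (log2FC 0.75), and MCAM, listed by its other name MUC18, was lower (-0.79). The list median was -0.65, or -0.38 with genes at 0 counts set to their floor. Of 12 tested genes of the SLC12 transporters and the kinases that control them, 4 were higher and 3 lower (median 0.13), beside 16.8% of all genes higher and 22.8% lower. WNK3, a kinase of this pathway, had 109, 34.4 and 70.4 CPM in Single Cell Reps 1, 2 and 3, with a mean of 55.4 ± 3.81 CPM (SD) over the 6 larger libraries (log2FC in Rep 1 of 0.97, adjusted p = 4.19e-05). SLC12A2, the cotransporter of most cells, was lower (-0.90, adjusted p = 8.08e-05), as was SLC12A9 (-2.85, adjusted p = 0.000139).

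Of 11 other DHRS genes, only DHRSX passed, lower by a log2FC of -0.57 (edgeR adjusted p = 0.0375, median -0.21). Of 21 genes of retinoic acid synthesis, binding and response, 5 were higher and 3 lower (median -0.30), beside 16.8% of all genes higher and 22.8% lower. RARRES3, which retinoic acid induces, had 12.5, 5.53 and 4.04 CPM in the single cells, with a mean of 0.921 ± 0.261 CPM (SD) over the 6 larger libraries (log2FC in Rep 1 of 3.75, adjusted p = 2.03e-05). RDH14, a retinol dehydrogenase, was higher (1.73, adjusted p = 0.00204), and CYP26B1, which breaks down retinoic acid, was lower (-0.93, adjusted p = 0.00759). RARRES3 was highest in Rep 1 and lowest of the single cells in Rep 3, unlike ALDH1A2. CYP26B1 had 8.92, 12.5 and 21.7 CPM in the single cells, so that it was highest of them in Rep 3, like ALDH1A2.

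Of 6 calcium pumps tested, ATP2A1 was higher in Rep 1 (log2FC 2.32, edgeR adjusted p = 2.13e-05, list median -0.02, or 0.03 with genes at 0 counts at their floor), and no ITM2 relative among 4 passed (median -0.14). Among 8 plakins and keratin partners, PLEC (0.45, adjusted p = 0.00515) and KRT18 (0.48, adjusted p = 0.0213) were higher, and 3 were lower, among them KRT8 (-0.84, adjusted p = 0.0434) and MACF1 (-0.46, adjusted p = 0.00141), with a median of -0.19. PLEC, which like EPPK1 links intermediate filaments, had 492.5, 259.5 and 519 CPM in the single cells, with a mean of 358 ± 34.7 CPM (SD) over the 6 larger libraries. KRT8 had 4.62, 9.75 and 26.1 CPM in the single cells, so that it was highest in Rep 3, as EPPK1 was. ATP2A1 had 20.6, 1.33 and 0.0958 CPM, so that it was lowest of the single cells in Rep 3, where ATP2B4 was highest. Of 19 actins and actin-like genes, 2 were higher, among them POTEE (1.53, adjusted p = 0.000494), and 4 lower, among them POTEI (-2.26, adjusted p = 0.0116) and ACTG2 (-1.80, adjusted p = 0.0150), with a median of -0.08. Of 17 genes of retroelement repression, 4 were higher, among them MORC2 (0.70, adjusted p = 0.000400), EHMT2 (0.63, adjusted p = 0.000151) and TRIM28 (0.33, adjusted p = 0.00174), and CBX3 was lower (-0.77, adjusted p = 0.000248), with a median of 0.12. All of these counts stand beside 16.8% of all genes higher and 22.8% lower in this comparison. Between 10 cells and more, and between 100 and 1000 cells, no gene of these lists passed.

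Profiles over the 9 libraries were compared by the root mean square difference of log2 CPM, each gene centred on its own mean, as a description. The members lay between 0.283 (ALDH1A2) and 2.93 (DHRS2) from their own mean profile, with SLC12A3 at 1.65 and ITM2A at 1.86. Of 13460 other genes, GLIPR2 came closest to the mean profile (0.164), with 11.03, 2.22 and 46.4 CPM in Single Cell Reps 1, 2 and 3. SLC45A3, a transporter gene of prostate (0.250), SNORD117 (0.316), ZNF287 (0.342), MCF2L-AS1 (0.345), the muscle gene MYOM1 (0.347) and RPS15AP10 (0.350) were among those that followed. MYOM1 had 33.7, 2.86 and 66.4 CPM in the single cells, against 12.02 to 24.3 CPM in the other libraries.

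For single members, the closest profile to MUC4 was that of LOC100505817 (0.444), which had 32.4, 7.63 and 84.2 CPM in the single cells and was lowest in 100 Cell Rep 1 (3.58 CPM). ZNF793, a zinc finger gene, was closest to ACTL8 (0.207), with 44.7, 6.67 and 97.7 CPM in the single cells and 7.20 CPM in 100 Cell Rep 1. JARID2, a partner of Polycomb repressive complex 2, was closest to KIAA1551 (0.0975), with 94.8, 46.6 and 100.8 CPM. PCDHB3, a protocadherin gene, was closest to POTEF (0.317), FBXO3 to ITM2A (0.171), TBC1D25 to EPPK1 (0.124), ZNF706 to ATP2B4 (0.151), LOC101928068 to ALDH1A2 (0.287) and LOC102724153 to SLC12A3 (0.388). No gene was near DHRS2, for which PPEF1, a phosphatase gene, at 1.40 was the closest.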

How the data were processed

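According to the submitters' processing notes and methods, the authors used FastQC 0.11.9 for read quality, Trim Galore 0.6.7 for trimming, HISAT2 2.2.1 for alignment against hg38, SAMtools 1.16.1 for sorting, and featureCounts (Subread 2.0.6, strand setting 2) for counting over exons. The deposited values were whole read counts per gene, not normalized and one library per file. Both mates of a pair were counted, multi-mapping reads were not, and the annotation release is not given in the sources used here. Depth was 42842970 to 61645865 counts per library.

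Counts were analysed in R 4.3.3 with edgeR 4.0.16 and DESeq2 1.42.0. CPM used TMM library sizes. Genes were filtered with filterByExpr, which all 10 genes passed, and tested with edgeR's quasi-likelihood test, adjusted over all genes by Benjamini-Hochberg at 0.05. Standard errors were derived from the F statistic. The 10 genes, the lists of relatives, the markers and the tests were chosen with earlier results of these data known. Single Cell Rep 2 and Rep 3, which chose the genes, entered no test. Named besides were up to 4 called genes per list, the 3 largest differences not chosen, and genes of most similar profile. Alternatives covered normalization, tool, filter, depth, replicate number and each library. Some genes that these rules name are not reported here.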

Additional observations from a re-analysis of the deposited data

Results flagged for a closer look

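In 100 Cell Rep 1, SLC12A3 was at 4.28 CPM and ACTL8 at 16.5 CPM, both so far below the other 5 libraries of 10, 100 and 1000 cells that the gap to the next library took up 0.747 and 0.695 of the whole range on the log2 scale, above Dixon's critical value for 6 libraries. Chance flags about 1 in 20 groups, and the 10 genes were each examined in this way.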

How the results depend on the processing

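For Single Cell Rep 1 against the 6 libraries of more cells, the number of the 10 genes called was 8 and ranged from 6 to 8 over all alternatives. It was 8 without each library in turn, while genes called in all numbered 6749 and ranged from 5887 to 7319 without each library. ACTL8 lost its call with DESeq2 (adjusted p = 0.103), and ALDH1A2 and ITM2A with the replicate block (adjusted p = 0.0670 and 0.0676). For 10 against 100 and 1000 cells, the 3 genes called became 266 with DESeq2 and 7 with no filter, and 0 to 162 without each library, the most without 100 Cell Rep 1. Of the 10 genes, 0 were called, and 3 with DESeq2, 1 with no filter and 0 to 1 without each library. For 100 against 1000 cells, 0 genes became 1 with DESeq2, 31 with no filter and 3 to 4951 without each library. Of the 10 genes, 0 were called, and 2 with no filter (SLC12A3 and ACTL8) and 0 to 8 without each library. For 100 against 1000 cells, leaving out a library left 1 library on its side, whose spread was taken from the other side. The cause of these changes was not tested.

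With the replicate block, 5915 genes and 6 of the 10 were called for Single Cell Rep 1, 3 and 0 for 10 against more cells, and 20 and 2 for 100 against 1000 cells. The numbers do not pair the libraries, since deviations of equal numbers correlated at -0.0164, 0.0209 and 0.0110 across 15926 genes. Signs changed only for ATP2B4, with values near 0, and for DHRS2 between 100 and 1000 cells. DHRS2 had 3.70 and 1.01 CPM at 100 cells and 3.80 and 1.69 CPM at 1000 cells. ATP2B4 at 10 cells, at -0.00 in the main analysis, became 0.0015 with DESeq2 size factors, 0.0014 with DESeq2, 0.0048 with the minimum of 10 CPM in 2 libraries and 0.0021 when thinned, and lay between -0.0308 and 0.0334 without each library, above 0 without 10 Cell Rep 1, 100 Cell Rep 1 or 1000 Cell Rep 2. For 100 against 1000 cells, ATP2B4 lay between -0.0859 (without 100 Cell Rep 1) and 0.104, below 0 also without 1000 Cell Rep 1, and DHRS2 between -1.4294 and 0.475 (without 1000 Cell Rep 1), above 0 also without 100 Cell Rep 2. Differences between single libraries kept their direction with a prior count of 0.5 and without TMM. KIAA1551 between Single Cell Rep 3 and Rep 2 came to 0.999 without TMM, under the difference of 1. DHRS2 had 0 to 191 counts outside Single Cell Rep 3.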
